A study of Mus musculus with 10 samples.

Results

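The Nrf2 electrophile response genes examined here are 10 genes of the cell's defence against reactive compounds: Nfe2l2, Gclc, Gclm, Txnrd1, Srxn1, Nqo1, Cbr3, Hmox1, Gsta4 and G6pdx. They are known Nrf2 targets together with the gene for Nrf2 itself, and all 10 were found among the 30677 genes of the count table and passed the filter on low counts, which left 20027 genes. The genes were listed by name and selected on results already in view, their CPM (read counts scaled by the normalized library size) in all 6 libraries and their fold changes of MB-3 against DMSO, so the fold changes and calls of these 10 genes in that comparison are given as a description and carry no support of their own. The libraries come from TNGA mouse embryonic stem (ES) cells, a single cell line with GFP inserted at 1 allele of Nanog, grown in serum and leukemia inhibitory factor (LIF). The DMSO group had 3 libraries from vehicle-treated cells, and the MB-3 group 3 libraries from cells given the Kat2a inhibitor MB-3 at 100 μM for 48 hours. Every culture of either group held 0.1% DMSO. Replicates carry the letters A, B and C in both groups, and since nothing says whether letters stand for separate passages or days, p-values measure the spread between these cultures. PolyA RNA was sequenced, and the table held between 46863700 and 51137896 counts for a DMSO library and between 42270312 and 49334434 for one of MB-3.

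Nrf2, the product of Nfe2l2, is a transcription factor held at low levels by Keap1, an adaptor that hands it to a Cul3 ubiquitin ligase for degradation. Electrophiles and oxidants modify cysteines of Keap1, Nrf2 then accumulates, pairs with a small Maf protein and binds antioxidant response elements near genes for glutathione synthesis, thioredoxin recycling, quinone and carbonyl reduction, heme breakdown and NADPH supply. The response is thus controlled largely at the level of the protein, which RNA-seq does not measure. MB-3 is a lactone that carries a methylene group beside its carbonyl, and methylene lactones as a class can react with thiols. Whether MB-3 reached Keap1 in these cells was not measured.

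The antioxidant response element is shown first, because it is the sequence by which these genes are recognized as a family. RefSeq promoter windows (GRCm38.p6, 250 bases before to 50 after a transcription start) were available for 7 of the 10 genes in 9 windows, since Txnrd1 has 3. Those of Gclc, Hmox1 and Gsta4 were not analysed here. The core TGACNNNGC, searched on both strands, occurred in 5 of the 7 genes, Nfe2l2, Gclm, Txnrd1, Srxn1 and G6pdx, beside 14.0% of the 27025 genes in the set. In the lines that follow the core is in capitals with 10 bases on either side, read 5′ to 3′ on the strand that holds it.
Gclm: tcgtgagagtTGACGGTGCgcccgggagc
Txnrd1: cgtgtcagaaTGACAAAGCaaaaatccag
G6pdx: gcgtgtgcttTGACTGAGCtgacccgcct
Nfe2l2: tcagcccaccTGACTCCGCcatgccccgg
The Gclm stretch lies on the minus strand at chr3:122245413-122245441, with the core 134 bases before the start. The Txnrd1 stretch lies on the minus strand at chr10:82859104-82859132, 92 bases before the start of 1 of its 3 promoters. For G6pdx it is on the plus strand at chrX:74428919-74428947, 57 bases before the start, and for Nfe2l2 on the minus strand at chr2:75704885-75704913, 240 bases before the start. In Srxn1 the core stands 29 bases after the start and is not printed.

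Srxn1 also held the related heptamer TGANTCA, which is its own reverse complement and can overlap the core above. It occurred 2 times in Srxn1 and in no other member window, beside 8.97% of all genes.
Srxn1, 102 bases before the start: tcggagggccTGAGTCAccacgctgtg
Srxn1, 45 bases before the start: aaattcacccTGAGTCAgcggccgggc
These lie on the plus strand at chr2:152105412-152105438 and chr2:152105469-152105495. Nqo1 and Cbr3, described further on, held neither set of letters in these windows. A match of so short a core is a description of the sequence, and the elements of several of these genes are known to lie farther upstream than such a window reaches.

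Of the 10 genes, 5 were higher in every MB-3 library than in every DMSO library: Cbr3, Nqo1, Gclm, Txnrd1 and Gclc. By this rule 8.22% of all genes tested were higher. Their fitted changes were small, from 10.3% in Gclc to 58.1% in Cbr3. Srxn1 and G6pdx had higher means with overlapping groups, and Hmox1, Gsta4 and Nfe2l2 had fitted changes of 1.54% or less. Fits were made with edgeR's quasi-likelihood test and Benjamini-Hochberg adjustment over all genes, with 0.05 as the threshold, and fold changes are MB-3 against DMSO on the log2 scale. With treatment as the only term, Cbr3 and Gclm passed, which is 2 of 10 genes beside 0.0999% of all genes called as higher. The replicate letters were taken to pair the cultures because libraries of the same letter deviated together, only weakly so in A (correlation 0.115). The labels do not state such a pairing, and every blocked call depends on it. With the letter as a block Txnrd1 and Nqo1 passed as well. This makes 4 of 10 beside 3.22% of all genes as higher and 7.12% in either direction. The same 4 genes passed with the block when both libraries of A, of B or of C were left out. Within the letters, 7 of the 10 genes were higher in MB-3 than in DMSO for A, B and C alike, as were 20.2% of all genes tested, and 0 of the 10 were lower in all 3, where all genes gave 20.3%. All 10 fitted fold changes were above 0, as were 49.7% of all, and 4 of 10 were at least 0.25 on the log2 scale beside 8.74%. The median log2 fold change was 0.15 over the 10 genes and -0.0011 over all genes tested. As the genes were listed with this comparison in view, nothing is read from these counts.

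**Figure D1:**
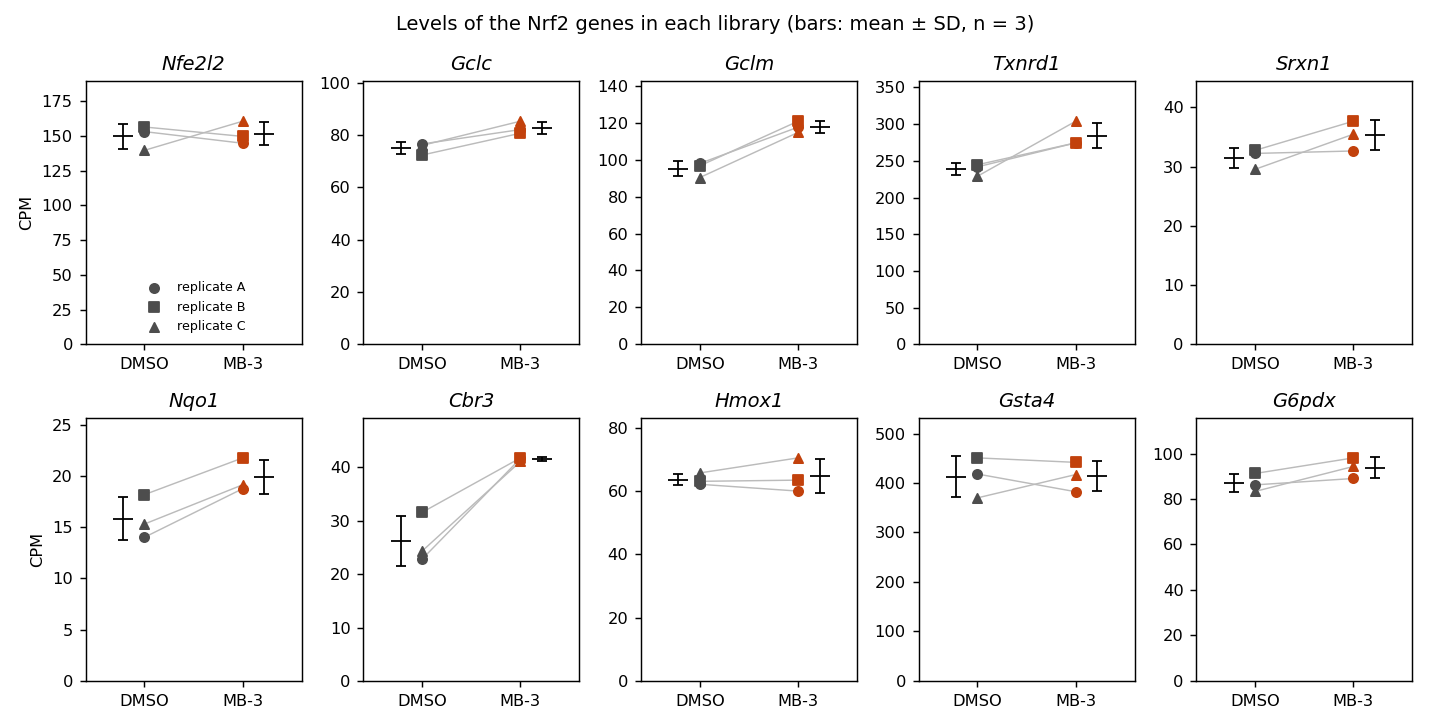
Level of each of the 10 Nrf2 genes in CPM (linear axis from 0) in the 3 DMSO libraries (gray) and the 3 MB-3 libraries (orange), with thin lines joining libraries of the same letter and bars giving mean ± SD over 3 libraries. Cbr3, Nqo1, Gclm, Txnrd1 and Gclc have no MB-3 library at or below a DMSO library, while the points of Nfe2l2, Hmox1 and Gsta4 interleave.

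Of the 10 genes, Cbr3 had the largest fitted change. Cbr3 (ENSMUSG00000022947, GRCm38 chromosome 16 from 93683215 to 93690990) encodes a cytosolic carbonyl reductase. It was at 22.8, 31.6 and 24.3 CPM in DMSO A, B and C and at 41.7, 41.8 and 41.1 CPM in MB-3 A, B and C. The MB-3 libraries were almost equal, with an SD of 0.360 CPM, and the DMSO libraries were spread by an SD of 4.68 CPM with B the highest. The log2 fold change was 0.66 (standard error 0.10, 95% interval 0.45 to 0.87). Within letters the log2 ratio was 0.87 in A, 0.40 in B and 0.75 in C. With each library left out in turn it stayed between 0.57 and 0.82 and passed the threshold in 2 of 6 fits, without DMSO B and without MB-3 C.

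Nqo1 (chromosome 8 from 107388225 to 107403206), the quinone reductase most often used as a readout of Nrf2, had 675 to 956 reads per library, the fewest of the 10 genes. Its levels were 14.0, 18.2 and 15.3 CPM in DMSO A, B and C and 18.8, 21.8 and 19.1 CPM in MB-3. The groups did not overlap, but DMSO B lay only just below MB-3 A, and B was the highest letter in both groups. Its log2 fold change was 0.33 (standard error 0.10, 95% interval 0.12 to 0.54). In edgeR this passed with the block, where the standard error was 0.07, and not with treatment as the only term, except when DMSO B was left out. With each library left out in turn it ran from 0.25 to 0.44.

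Glutamate-cysteine ligase, which makes the first bond of glutathione, has a modifier and a catalytic subunit, and of these Gclm passed. Gclm, the modifier subunit (ENSMUSG00000028124, chromosome 3 from 122245557 to 122270732), was at 98.1, 96.8 and 90.4 CPM in DMSO A, B and C and at 118, 121 and 115 CPM in MB-3. All MB-3 libraries thus stood well clear of the DMSO libraries. The log2 fold change was 0.31 (standard error 0.06, 95% interval 0.19 to 0.43), an increase of 24.0%. Within letters it was 0.26, 0.32 and 0.35 for A, B and C, and with each library left out in turn it stayed between 0.27 and 0.33. In those 6 fits it passed the threshold in 1, without DMSO B, and did not pass without DMSO A, DMSO C, MB-3 A, MB-3 B or MB-3 C. Exons of Gclm overlap Gm17494 on the opposite strand, which held 2.31 to 2.71 CPM, and Gm6061 on the same strand, which had no row in the count table used here, and the strand setting of the counting is not given in the sources used here.

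Gclc, the catalytic subunit (chromosome 9 from 77754535 to 77794485), was at 76.6, 72.4 and 76.0 CPM in DMSO A, B and C and at 82.1, 80.7 and 85.3 CPM in MB-3. Its groups were apart as well, by a smaller margin. The log2 fold change was 0.14 (standard error 0.06, 95% interval 0.02 to 0.26), and Gclc did not pass in either fit. The intervals of Gclc and Gclm overlap, and the difference between the subunits was not tested.

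In the thioredoxin branch, Txnrd1 (chromosome 10 from 82833951 to 82897712), the cytosolic thioredoxin reductase, was at 242, 245 and 229 CPM in DMSO A, B and C and at 274, 275 and 304 CPM in MB-3. The groups did not overlap, and letter C held both the lowest DMSO and the highest MB-3 library. Its log2 fold change was 0.25 (standard error 0.06, 95% interval 0.12 to 0.38), with ratios of 0.18, 0.17 and 0.41 within A, B and C. In edgeR it passed with the block but not with treatment alone, except when DMSO B was left out. DESeq2 called it with treatment alone, beside Gclm and Cbr3.

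Srxn1 (chromosome 2 from 152105516 to 152111376), the sulfiredoxin that repairs overoxidized peroxiredoxins, was at 32.2, 32.8 and 29.6 CPM in DMSO and at 32.7, 37.7 and 35.5 CPM in MB-3. MB-3 A lay within the DMSO range, and the other MB-3 libraries lay above it. The log2 fold change was 0.16 (standard error 0.07, 95% interval 0.01 to 0.32), and it passed in neither fit.

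The intervals of the remaining 4 members, with treatment as the only term, all included 0. G6pdx (chromosome X from 74409483 to 74429194), glucose-6-phosphate dehydrogenase and the entry to the NADPH-producing pentose phosphate pathway, was at 86.2, 91.2 and 83.3 CPM in DMSO and at 89.0, 98.1 and 94.3 CPM in MB-3. Its interval of the log2 fold change ran from -0.02 to 0.24 around 0.11. Its exons overlap Ikbkg on the opposite strand, which was at 22.8 to 28.6 CPM.

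Hmox1 (chromosome 8 from 75093621 to 75100589), the heme oxygenase that is under Bach1 repression as well as Nrf2 control, was at 62.1, 63.1 and 65.7 CPM in DMSO and at 60.0, 63.5 and 70.5 CPM in MB-3. MB-3 held both the lowest and the highest of the 6 libraries. The log2 fold change was 0.02, with an interval from -0.12 to 0.17.

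Gsta4 (chromosome 9 from 78182774 to 78209349), a glutathione transferase that takes up 4-hydroxynonenal from oxidized lipids, had the most reads of the 10 genes. It was at 418, 451 and 370 CPM in DMSO and at 382, 442 and 417 CPM in MB-3, with B the highest in both groups. Its log2 fold change was 0.00 with an interval from -0.16 to 0.17, and its sign changed in several alternative fits.

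Nfe2l2 itself (chromosome 2 from 75675513 to 75704641) was at 153, 157 and 140 CPM in DMSO and at 145, 150 and 161 CPM in MB-3. The libraries of A and B were lower in MB-3 and those of C higher, with log2 ratios of -0.08, -0.06 and 0.20. The log2 fold change was 0.02 (95% interval -0.12 to 0.15). Letter C had the largest log2 ratio of the 3 letters in 8 of the 10 genes, the exceptions being Cbr3 and Nqo1, where A had it.

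**Figure D2:**
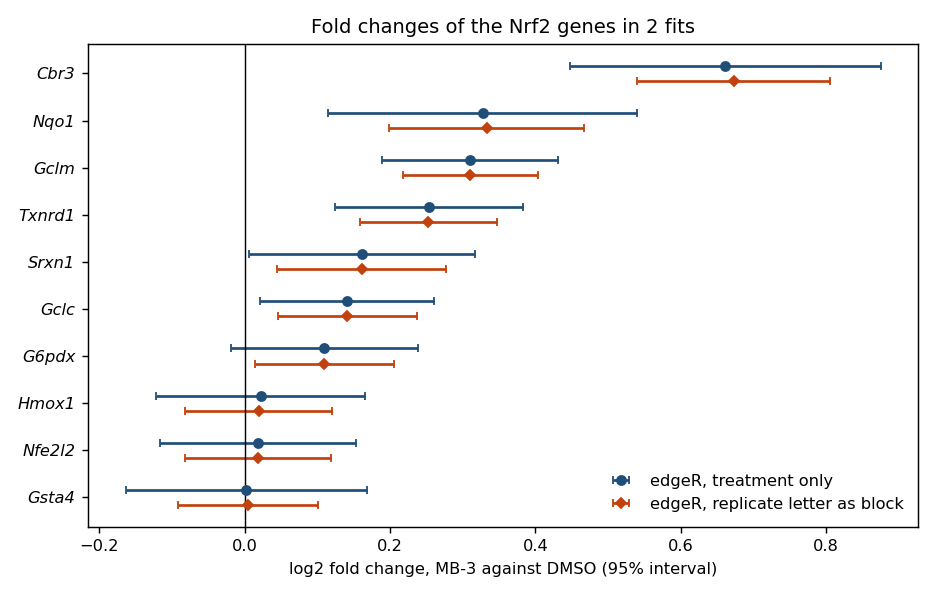
Log2 fold change of MB-3 against DMSO for each of the 10 genes (linear axis), ordered by size, with 95% intervals from edgeR with treatment as the only term (blue circles) and with the replicate letter as a block (orange diamonds). Cbr3 stands at 0.66 in the first fit, and the intervals of Hmox1, Nfe2l2 and Gsta4 include 0 in both.

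Levels between genes were compared as TPM, in which counts are divided by the length of the merged exons and every library is set to the same total. In DMSO, Gsta4 had by far the highest level at 537 ± 34.9 TPM (SD, n = 3). Next came Nfe2l2 at 65.1 ± 2.72 TPM, Hmox1 at 60.0 ± 3.68 TPM and Txnrd1 at 55.5 ± 1.74 TPM, of which each neighboring pair had overlapping DMSO libraries. G6pdx followed at 46.5 ± 0.578 TPM and was apart from both neighbors. Cbr3 at 34.4 ± 4.57 TPM and Gclc at 32.9 ± 2.41 TPM overlapped, so their order is not settled in DMSO. Gclm was at 24.9 ± 1.15 TPM, below Gclc, and Srxn1 at 18.4 ± 0.741 TPM and Nqo1 at 16.8 ± 1.58 TPM overlapped at the foot of the order. In MB-3, Cbr3 was at 55.9 ± 2.48 TPM and Nqo1 at 21.6 ± 0.847 TPM. The order depends on the length taken for Txnrd1, since with the longest transcript in place of merged exons Txnrd1 was at 97.4 TPM in DMSO and ranked second.

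**Figure D3:**
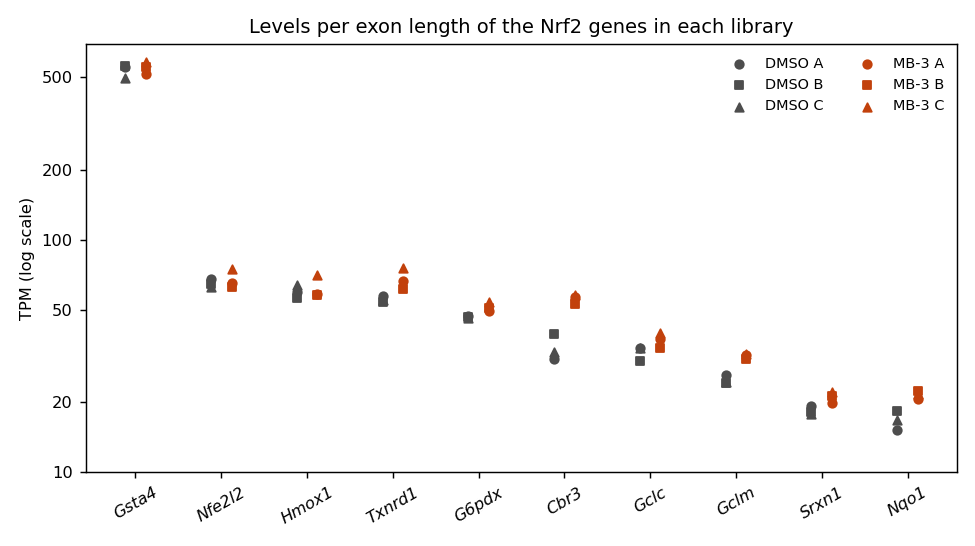
Level per exon length of the 10 genes in TPM (log axis) in each DMSO library (gray) and MB-3 library (orange), with marker shapes for letters A, B and C and genes in the order of their DMSO means. Gsta4 at a DMSO mean of 537 TPM lies far above the others, and Cbr3 in MB-3 lies above all of its DMSO points.

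The wider Nrf2 pathway was then examined with 49 other genes, of which 47 were in the count table and 44 were tested. This list, the other stress responses and the cell type markers were also chosen with earlier results of these data known. Their counts and p-values are therefore a description and no independent check. With treatment as the only term 0 of the 44 passed (edgeR with Benjamini-Hochberg adjustment), beside 0.205% of all genes called in either direction. In that fit 12 of the 44 had an unadjusted p-value under 0.05, as had 2182 of all 20027 genes tested. DESeq2 called 3 pathway genes, Gpx1, Abcc4 and Fth1, and limma-voom 0. With the replicate block 8 passed as higher in MB-3 and 2 as lower, against backgrounds of 3.22% and 3.9% of all genes. The median log2 fold change of the 44 genes was 0.02. Values printed below with a blocked p-value come from the blocked fit. The groups were apart in 10 of them, with MB-3 above in 6 and below in 4, where all genes gave 8.22% and 7.37%.

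Among the regulators, Keap1 was at 18.5, 18.7 and 20.4 CPM in DMSO A, B and C and at 18.7, 18.6 and 20.2 CPM in MB-3, nearly the same library by library. Bach1, the repressor that competes for antioxidant response elements, was the only one of 10 regulators to pass with the block over all 6 libraries. It was at 54.2, 48.3 and 49.3 CPM in DMSO and at 61.4, 54.3 and 56.2 CPM in MB-3, higher by 0.18 on the log2 scale (SE 0.05, blocked edgeR fit, adjusted p = 0.0217). The call was lost in DESeq2 with the block (adjusted p = 0.0893) and in the blocked edgeR fit without both libraries of A, B or C (adjusted p = 0.131, 0.0914 and 0.0721). In the fit without B, Nfe2l1, a transcription factor related to Nrf2, passed as lower in its place. The small Maf gene Maff had the lowest value of the regulators, -0.20, and did not pass in either fit (edgeR adjusted p = 0.483 and 0.173). Without DMSO C it was at -0.091.

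Genes of glutathione supply and use went both ways. With the block 4 of the 14 tested were higher. Gpx2, a glutathione peroxidase of low abundance here, was at 2.22, 2.37 and 3.17 CPM in DMSO and at 3.34, 4.28 and 5.11 CPM in MB-3, higher by 0.71 on the log2 scale (SE 0.13, blocked edgeR fit, adjusted p = 0.000502). Abcc4, which exports conjugates, was at 137, 139 and 116 CPM in DMSO and at 169, 159 and 153 CPM in MB-3, higher by 0.30 (blocked edgeR fit, adjusted p = 3.7e-05). The transferases Gstm1 and Gstp1 were higher by 0.19 and 0.25 (blocked edgeR fit, adjusted p = 0.010 and 0.019), and both belong to families whose near-identical copies can share reads. Gstm1 did not pass in the blocked edgeR fit without B or without C, nor Gstp1 without C or in DESeq2 with the block, and with treatment alone Gstp1 was at 0.16 without DMSO C. Gpx2 and Abcc4 passed in DESeq2 with the block and in the blocked edgeR fits without A, B or C.

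The other 2 calls in this group were lower. Gpx1, the abundant peroxidase that reduces hydrogen peroxide, was at 81.7, 87.5 and 92.8 CPM in DMSO and at 68.1, 66.0 and 77.0 CPM in MB-3, which is -0.31 on the log2 scale (SE 0.05, blocked edgeR fit, adjusted p = 3.8e-05). Slc3a2, the heavy chain of the cystine transporter, was lower too, at -0.14 (blocked edgeR fit, adjusted p = 0.0389). Gpx1 passed in DESeq2 with the block and in the blocked edgeR fits without A, B or C, while Slc3a2 did not pass without A or without B. With treatment alone and without MB-3 C, Slc3a2 was at -0.21. Its partner in the transporter, Slc7a11, was at 6.27, 6.74 and 6.84 CPM in DMSO and at 5.75, 5.31 and 5.62 CPM in MB-3. Every MB-3 library of Slc7a11 thus lay below every DMSO library, at -0.25 on the log2 scale. It did not pass (edgeR adjusted p = 0.388 and, with the block, 0.140). Gsta3 had the lowest value of the group, -0.32 at 2 to 3 CPM, and did not pass (edgeR adjusted p = 0.443 and, with the block, 0.200).

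In the other branches of the pathway Fth1, Prdx6 and Ptgr1 passed with the block, all as higher, where 3.22% of all genes were called higher. Fth1, the ferritin heavy chain that stores iron, was at 220, 258 and 230 CPM in DMSO and at 268, 284 and 284 CPM in MB-3, higher by 0.24 (SE 0.04, blocked edgeR fit, adjusted p = 0.000377). It was the only 1 of 6 heme and iron genes to pass, and Blvra had the lowest value there at -0.02. The antioxidant enzyme Prdx6 was the only 1 of 3 thioredoxin and peroxiredoxin genes to pass, at 0.16 (blocked edgeR fit, adjusted p = 0.0226). Ptgr1, a reductase of alkenals and prostaglandins, was the only 1 of 6 quinone, carbonyl and epoxide genes to do so, at 0.18 (blocked edgeR fit, adjusted p = 0.0447). Neither Prdx6 nor Ptgr1 passed in the blocked edgeR fit without A or without C, and Ptgr1 did not pass in DESeq2 with the block, whereas Fth1 passed in each of these. With treatment alone Ptgr1 was at 0.26 without DMSO B and at 0.11 without DMSO C. Aldh3a1 had a larger value of 0.35 and Ephx1 the lowest at -0.17, and neither passed. Without DMSO C, Ephx1 was at -0.095. Of the NADPH suppliers 0 of 5 passed in either edgeR fit (1 at an unadjusted p-value under 0.05 with treatment alone), with values from -0.05 in Idh1 to 0.13 in Pgd. With each library left out in turn, Idh1 ran from -0.085 to -0.0082 and Pgd from 0.088 to 0.18. Without DMSO B and with treatment alone, 4 genes of the pathway passed, Gpx1, Gstp1, Abcc4 and Fth1.

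**Figure D4:**
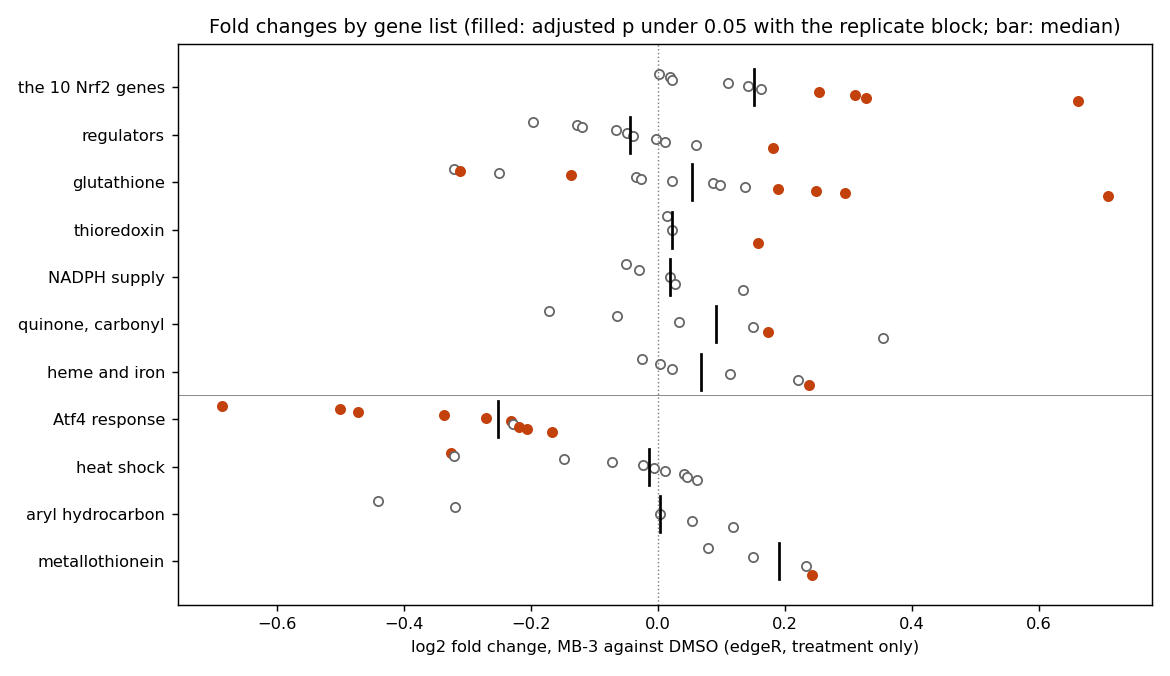
Log2 fold change of MB-3 against DMSO (edgeR with treatment as the only term, linear axis) for every tested gene of the 10 Nrf2 genes, the 6 lists of other pathway genes and, below the gray line, the 4 other stress responses. Filled points passed the threshold with the replicate block, and vertical bars give each list's median, which is 0.15 for the 10 genes and -0.25 for the Atf4 response.

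Other stress responses were set beside these genes, with no test between lists. As these lists too were chosen with earlier results known, nothing is read from their counts against all genes. With treatment as the only term 0 of their 29 tested genes passed in edgeR, beside 0.205% of all genes. In that fit 11 of the 29 had an unadjusted p-value under 0.05, as had 2182 of all 20027 genes tested. DESeq2 called Atf4 and Asns, and limma-voom 0. The Atf4 list, which covers amino acid synthesis and the integrated stress response, had a median log2 fold change of -0.25, and 9 of its 10 genes passed with the block, all of them lower in MB-3, where 3.9% of all genes were called lower. In DESeq2 with the same block Chac1, Trib3 and Ddit4 did not pass. When both libraries of a letter were left out of the blocked edgeR fit, Psat1 and Phgdh did not pass without A, Sesn2 without B or C and Ddit4 without C. Atf4 itself was at 363, 355 and 387 CPM in DMSO A, B and C and at 306, 293 and 317 CPM in MB-3, with no overlap, which is -0.27 on the log2 scale (blocked edgeR fit, adjusted p = 3.6e-05). The glutathione-degrading enzyme Chac1 had the lowest value of the list, -0.69, with log2 ratios of -0.23, -0.87 and -0.98 within A, B and C, and the asparagine synthetase Asns a fall of -0.34. Ddit3, Trib3, Psat1, Phgdh, Sesn2 and Ddit4 lay between -0.52 and -0.16. With treatment alone and without DMSO C, Chac1 was at -0.44, Trib3 at -0.28, Sesn2 at -0.097 and Ddit4 at -0.040. Without MB-3 B, Ddit3 was at -0.32 and Trib3 at -0.31, and without DMSO B, Ddit4 was at -0.34. Without DMSO B and with treatment alone, Atf4, Asns, Chac1, Ddit3, Trib3 and Mt1 passed. Slc3a2 and Slc7a11 of the cystine transporter, described above with the glutathione genes, are also known Atf4 targets. Any part of Atf4 in their levels was not tested.

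Heat shock genes had a median of -0.01, and 1 of 10 passed with the block, Hspb1 at -0.32, beside 7.12% of all genes. Its log2 ratio was 0.03 in letter C, and the call was lost in DESeq2 with the block and in the blocked edgeR fits without A or without B. The aryl hydrocarbon receptor list, which shares Nqo1 as a target, had a median of 0.00, the value of Ahr itself. In it 0 of 5 tested genes passed in either edgeR fit, and 0 were at an unadjusted p-value under 0.05 with treatment alone. Cyp1a1, at a mean of 0.118 CPM in DMSO, was not tested. Ahrr and Cyp1b1 had DMSO means of 0.753 and 0.403 CPM and standard errors of 0.34 and 0.53. Tiparp, at a DMSO mean of 80.8 CPM, was at 0.05. The list thus cannot decide whether this response was absent. Of 4 genes of the metallothionein response, Mt1 passed at 0.25 (blocked edgeR fit, adjusted p = 0.0032), beside 3.22% of all genes as higher. The median of the list was 0.19. The groups of Mt1 overlapped, and its log2 ratios were 0.18, 0.05 and 0.51 within A, B and C. Mt1 did not pass in DESeq2 with the block or in the blocked edgeR fit without C, while Mt2 passed as higher in the blocked edgeR fits without A and without B, and the zinc exporter Slc30a1 in that without B.

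Markers of the labelled cell type were high in all libraries. The 8 pluripotency markers had sums of 4743 ± 248 CPM for DMSO and 4607 ± 170 CPM for MB-3 libraries (SD, n = 3), with Dppa5a the most abundant, and 0 of 8 passed in either edgeR fit (1 at an unadjusted p-value under 0.05 with treatment alone). Some markers of other cell types were lower in MB-3 with the block, by which 3.9% of all genes were called lower, and none of these passed with treatment alone. Simple epithelium and trophectoderm markers summed to 164, 90.1 and 288 CPM in DMSO A, B and C and to 75.0, 51.9 and 127 CPM in MB-3, and Krt8, Krt18 and Krt19 passed as lower with the block (3 of 6 tested), although their groups overlapped. Krt18 was the most abundant, and Elf5 was under 0.1 CPM in every library. Fibroblast markers summed to 9.52 ± 1.40 and 6.80 ± 0.110 CPM, with Thy1 the most abundant, Postn under 0.1 CPM throughout and Col1a1 and Col1a2 passing as lower with the block (2 of 6 tested, beside the same 3.9%). Extraembryonic endoderm markers summed to 10.5 ± 1.72 and 8.97 ± 0.846 CPM, mostly from Dab2, with 0 of 5 passing in either edgeR fit (0 at an unadjusted p-value under 0.05 with treatment alone). In bulk libraries fewer cells of a type and less RNA per cell cannot be told apart, and the part of these cells in the levels of the Nrf2 genes was not tested. Mitochondrial mRNA took 3.99%, 3.98% and 3.83% of counts in DMSO A, B and C and 3.69%, 4.16% and 3.41% in MB-3.

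Averaged over the 10 genes, log2(CPM + 0.1) was 6.25, 6.35 and 6.21 in DMSO A, B and C and 6.41, 6.51 and 6.50 in MB-3. Among 15862 genes outside all lists with a mean of at least 1 CPM, the profiles most like this average over the 6 libraries were those of Matn2 (Pearson r = 0.998), Gm10451 (0.996), Ddx24 (0.995), Mael (0.994) and Ppfibp2 (0.990). With 6 libraries and so many genes, correlations of this size describe the libraries and no more.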

How the data were processed

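The 6 polyA RNA-seq libraries were analysed. After trimming, the authors mapped the single-end reads with Bowtie (mm10), quantified exons in GenomicAlignments and deposited the raw counts by Ensembl identifier. Versions, annotation release and use of strand are not given in the sources used here. The H3K9ac peak lists were not used here, as they are on mm9 and were not converted. Symbols, positions and exon lengths came from GENCODE M21 (GRCm38), which matched 30540 of 30677 identifiers, and promoters from RefSeq. Counts were filtered with filterByExpr, scaled by TMM and fitted with edgeR 4.0.16 in R 4.3.3, with treatment as the only term or with the replicate letter as a block. Alternatives used DESeq2 1.42.0, limma 3.58.1, other scalings and filters, and each library left out. Precision at this depth was a standard error of 0.10 (median over genes, log2 scale).

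Libraries of the same letter deviated together from their group means, with correlations over 20027 genes of 0.115 (A), 0.287 (B) and 0.232 (C). Between different letters they ran from -0.230 to -0.020. Deviations within a group cancel out, so the same-letter and different-letter correlations are not independent of each other. The value for A lay only just above the cutoff set for taking letters as pairs. The pairing thus comes from the data and not from the labels. No 2 libraries of the same group agreed within counting noise (chi-square per gene of at least 8.39).

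The members and lists were chosen with earlier results of these data known. Named genes were the 10 members, Keap1, list genes that passed in either edgeR fit and the largest rise and largest fall in each pathway list, where the thioredoxin list held no fall. Nfe2l1, Mt2, Slc30a1, Slc7a11, Krt8, Krt18, Krt19, Col1a1, Col1a2, Thy1, Dppa5a, Postn, Elf5 and Dab2 were named after their values were seen.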

Additional observations from a re-analysis of the deposited data

How the results depend on the processing

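With treatment as the only term edgeR called 41 genes (20 higher and 21 lower in MB-3), 2 of the 10 Nrf2 genes, 0 of the other pathway genes and 0 of the comparison genes. With the replicate block these counts were 1425, 4, 10 and 11, and with the block in DESeq2 591, 4, 7 and 6. An alternative added after the data were seen, the block without both libraries of A, B or C, gave 939, 912 and 1037 genes, 4 Nrf2 genes each time (Gclm, Txnrd1, Nqo1 and Cbr3), 6, 8 and 5 pathway genes and 9, 11 and 8 comparison genes. With each library left out in turn and no block, the ranges were 0 to 520 genes, 0 to 4 Nrf2 genes, 0 to 4 pathway genes and 0 to 6 comparison genes. The upper end came without DMSO B (128 higher and 392 lower), and 0 genes were called without MB-3 A or MB-3 B (edgeR, 1440 and 1716 at an unadjusted p-value under 0.05). An arm reduced to 2 libraries, or a pair of letters, leaves few degrees of freedom before sharing across genes. DESeq2 called 183, 3, 3 and 2. Without a filter the counts were 194 (50 higher and 144 lower), 2, 1 and 3. With at least 1 CPM in 3 libraries 24 genes (9 higher and 15 lower) and 1 Nrf2 gene were called, with upper quartile scaling 25 (8 higher and 17 lower) and 1, with limma-voom 18 (6 higher and 12 lower) and 1, and with edgeR's robust option 66 and 2. The Nrf2 gene that remained in these fits with 1 was Cbr3. The core TGACNNNGC followed by a further A occurred in 1 of the 7 genes, in 1 promoter of Txnrd1, beside 3.45% of all genes.

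Signs reversed for 5 genes with values near 0. Without 1 library the ranges were -0.030 to 0.052 for Nfe2l2, -0.044 to 0.074 for Hmox1, -0.071 to 0.070 for Gsta4, -0.042 to 0.042 for Keap1 and -0.091 to 0.017 for Blvra. Gsta4 was at -0.0032 with upper quartile scaling and -0.0039 without a filter. With the block and without letter C the values were -0.073 (Nfe2l2), -0.021 (Hmox1), -0.079 (Gsta4), 0.0039 (Keap1) and 0.0026 (Blvra). No cause was tested for any of these shifts.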
